A study of Mus musculus with 16 samples.

Results

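The nuclear-encoded subunits of the mitochondrial respiratory chain and ATP synthase were followed across mouse embryos that lack endothelin receptor B and wild-type embryos. Members were taken by gene name alone, as protein-coding rows whose symbols begin with Nduf and a subunit letter and number, Sdha to Sdhd, Uqcr, Cox4 to Cox8, or Atp5. This gave 88 of the 56748 gene rows, with 87 distinct symbols, and 84 rows reached the expression level needed for testing. They were grouped into 5 complexes, with 37 rows in complex I, 4 in complex II, 8 in complex III, 21 in complex IV and 18 in complex V. Ndufa4 and Ndufa4l2 were placed in complex IV, where the Ndufa4 protein is now known to sit. RNA came from trunk or caudal regions isolated at E11.5, and the labels mention no sorting of cells. The 4 groups were Ednrb-/- caudal region, WT caudal region, Ednrb-/- trunk region and WT trunk region, with 4 libraries each. Ednrb-/- embryos carry a targeted mutation of the endothelin B receptor gene, per the series title, and strain was not analysed here. The labels call the 4 libraries of a group biological replicates without saying whether each came from 1 embryo or a pool, so p-values measure the spread between these libraries. The study concerns the place of pigmented spots on receptor-deficient mice and the role of local tissue in it.

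The respiratory chain sits in the inner mitochondrial membrane. Complex I takes electrons from NADH and complex II takes them from succinate, complex III passes them from ubiquinol to cytochrome c, and complex IV passes them on to oxygen. Complexes I, III and IV pump protons, and complex V, the ATP synthase, uses the returning protons to make ATP. All but complex II also contain subunits encoded in mitochondrial DNA, so RNA from both genomes is needed to build them. Complex IV is unusual in having nuclear subunits with exchangeable forms for heart and skeletal muscle, lung or testis. The mouse embryo lays down its body from head to tail, so caudal tissue is formed later than trunk tissue.

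Promoter windows are shown for 4 members: the caudal riser with the smallest adjusted p among those with a window in complexes I, II and V and, beside them, a muscle form of complex IV that did not rise. The same rule picked Uqcr10 in complex III and Cox7c in complex IV, whose windows are not printed. Nuclear respiratory factor 1 (NRF1), ETS-family factors such as GABP, and YY1 are textbook regulators of respiratory genes. Windows of 250 bases before to 50 bases after the start, from RefSeq on build GRCm38.p6, were searched on both strands for GCGCANGCG (the core of the NRF1 motif), CCGGAAG (ETS) and AANATGGC (YY1). The sequences run 5′ to 3′ on the gene's strand, and capitals mark the matches. All 4 genes lie on the minus strand, and their windows are chr13:73328433-73328732, chr13:74350191-74350490, chr5:108434350-108434649 and chr7:140900397-140900696.

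Ndufs6: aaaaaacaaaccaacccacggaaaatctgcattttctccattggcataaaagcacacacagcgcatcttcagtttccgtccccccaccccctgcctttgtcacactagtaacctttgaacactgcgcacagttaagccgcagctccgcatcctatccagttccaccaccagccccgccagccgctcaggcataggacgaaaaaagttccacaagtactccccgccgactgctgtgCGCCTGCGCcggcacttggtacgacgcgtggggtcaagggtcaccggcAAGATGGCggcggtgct
Sdha: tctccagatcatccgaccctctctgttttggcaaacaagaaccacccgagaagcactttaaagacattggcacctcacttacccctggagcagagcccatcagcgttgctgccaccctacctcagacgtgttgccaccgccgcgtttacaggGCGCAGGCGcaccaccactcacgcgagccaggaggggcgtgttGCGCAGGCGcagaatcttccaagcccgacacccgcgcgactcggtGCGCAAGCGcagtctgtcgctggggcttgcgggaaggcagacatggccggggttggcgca
Atp5k: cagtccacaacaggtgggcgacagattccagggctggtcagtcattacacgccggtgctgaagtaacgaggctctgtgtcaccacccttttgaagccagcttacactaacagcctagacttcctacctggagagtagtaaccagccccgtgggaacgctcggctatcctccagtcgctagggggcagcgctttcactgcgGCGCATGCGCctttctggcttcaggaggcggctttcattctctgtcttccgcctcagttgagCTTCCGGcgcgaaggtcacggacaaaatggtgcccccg
Cox8b: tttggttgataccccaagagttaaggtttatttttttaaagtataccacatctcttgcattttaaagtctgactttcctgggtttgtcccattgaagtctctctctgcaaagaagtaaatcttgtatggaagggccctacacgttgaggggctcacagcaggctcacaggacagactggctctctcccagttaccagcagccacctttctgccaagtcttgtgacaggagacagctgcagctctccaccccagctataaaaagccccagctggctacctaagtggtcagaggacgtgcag

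Ndufs6 held 1 NRF1 and 1 YY1 match. Sdha held 3 NRF1 matches, Atp5k held 1 stretch that matched the NRF1 core on both strands and 1 ETS match, and Cox8b held none of these letters. Among 74 windows of the 69 member symbols in the sequence table, 28.4% held the NRF1 letters, 23.0% the ETS letters and 23.0% the YY1 letters. Among all 32851 windows the shares were 6.25%, 8.86% and 6.05%. At least 1 of these motifs was in 60.8% of member windows and in 18.6% of all windows. Member windows were also richer in G and C, with a median of 57.5% against 52.7%. The windows of Uqcr10 and Cox7c, the risers picked by the same rule in complexes III and IV, held no match. The risers printed are thus only the picks that held one, and their contrast with Cox8b is no comparison of risers with other members. A match is a run of letters, not evidence of binding, and its absence says nothing about a factor.

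Libraries held between 34883821 and 43444905 reads in listed genes, recovered as whole reads from the deposited FPKM (fragments per kilobase of gene, scaled to a library total). Ednrb was at 1.59 to 3.44 FPKM in Ednrb-/- caudal libraries, against 26.2 to 33.5 FPKM in WT caudal libraries. It was at 3.37 to 4.80 FPKM in Ednrb-/- trunk libraries, against 35.8 to 41.8 FPKM in WT trunk libraries. Sex, read from RNA, was uneven. Libraries with high Xist and low Y-linked RNA were Ednrb-/- trunk 2, WT caudal 1 and WT trunk 1 and 4, and no Ednrb-/- caudal library was of this kind. Ednrb-/- caudal 3, WT caudal 2 and Ednrb-/- trunk 3 held both Xist and Ddx3y at 5 FPKM or more. Posterior Hox genes, which mark the caudal end, had a summed level of 249 to 279 FPKM in Ednrb-/- caudal, 283 to 325 FPKM in WT caudal, 10.9 to 26.0 FPKM in Ednrb-/- trunk and 13.8 to 52.2 FPKM in WT trunk libraries.

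Respiratory subunits were abundant. The median of the 84 tested members was 35.4 FPKM over all 16 libraries, against 4.68 FPKM for all 17205 genes tested and 6.68 FPKM for protein-coding genes tested. The ATP synthase head led the list, with Atp5a1 at 277 FPKM and Atp5b at 246 FPKM, followed by the complex IV subunits Cox8a at 147 FPKM, Cox6b1 at 137 FPKM and Cox6a1 at 136 FPKM. By complex, the median level was 31.1 FPKM in complex I, 51.4 FPKM in complex II, 57.4 FPKM in complex III, 53.9 FPKM in complex IV and 49.3 FPKM in complex V. Subunits of 1 complex did not share 1 RNA level: tested members ran between 2.05 and 80.3 FPKM in complex I and between 6.24 and 276.7 FPKM in complex V. The 5 lowest tested members were Cox8b, Cox7a1, Cox6a2, Ndufa4l2 and Cox4i2, all complex IV forms that are known for restricted tissues or for low oxygen, at 0.613 to 1.65 FPKM. Of the 4 untested rows, the testis form Cox7b2 had 5 reads over 16 libraries, Ndufb11b had 2, and Cox8c and a second row named Atp5o had 0. Where a group held any read of Cox7b2 or Ndufb11b, a two-sided exact permutation test gave p = 0.43 to 1. Cox7b2 was above 0 in only 3 libraries and Ndufb11b in 1. With so many tied values of 0 the test could not have given a small p, so it decides nothing about these genes. The tested members were short genes, with a median length of 1522.5 bases against 3609 bases, and lay on 19 chromosomes, with Ndufa1, Ndufb11 and Cox7b on the X.

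In the caudal region, subunits of all 5 complexes were higher in Ednrb-/- embryos than in WT embryos. The summed level of the tested members was 4330, 4605, 4368 and 4589 FPKM in Ednrb-/- caudal libraries, against 3703, 3856, 3932 and 3742 FPKM in WT caudal libraries. Every Ednrb-/- caudal library lay above every WT caudal library. Of 84 members, 66 rose, 1 fell and 17 were not called, where a call is an adjusted p under 0.05 in limma on log2(FPKM + 0.5) with Benjamini-Hochberg adjustment over all genes tested. In the same comparison 21.7% of all genes tested were called higher and 19.9% lower. The median member difference was 0.22 on the log2(FPKM + 0.5) scale, which understates change in low genes, against a median of 0.0068 over all genes tested. A difference above 0 was found for 78 of 84 members, against 51.1% of all genes. Values of the 2 groups did not overlap for 57 members that were higher and 1 that was lower, against 19.1% and 18.2% of all genes. These are unsorted tissues, so fewer cells of a type and less RNA per cell cannot be told apart.

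The size of this difference depended on scaling. With FPKM rescaled to TPM, 37 members were called higher and 4 lower, with voom on the recovered reads 46 and 2, and with quantile normalization 31 and 3. Members' medians stayed above 0, at 0.11, 0.15 and 0.095. Over all genes tested, 12.9% were called higher and 29.2% lower with TPM and 15.3% and 25.7% with voom. With quantile normalization these shares were 19.9% and 18.5%, close to those on the deposited FPKM. The members' median minus that of all genes was then 0.071, against 0.21 on the deposited FPKM. The 24 members called higher with all 4 scalings came from every complex: Ndufa1, Ndufa2, Ndufa3, Ndufa4, Ndufa5, Ndufa7, Ndufa9, Ndufb6, Ndufb7, Ndufb8, Ndufs6, Sdha, Sdhd, Uqcr10, Uqcr11, Cox5a, Cox5b-ps, Cox6c, Atp5g1, Atp5g2, Atp5g3, Atp5j2, Atp5k and Atp5md. The count lower was 2 without Ednrb-/- caudal 3. With a sex term 62 members were called higher, and 60 without the 3 libraries that held both Xist and Ddx3y.

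**Figure D1:**
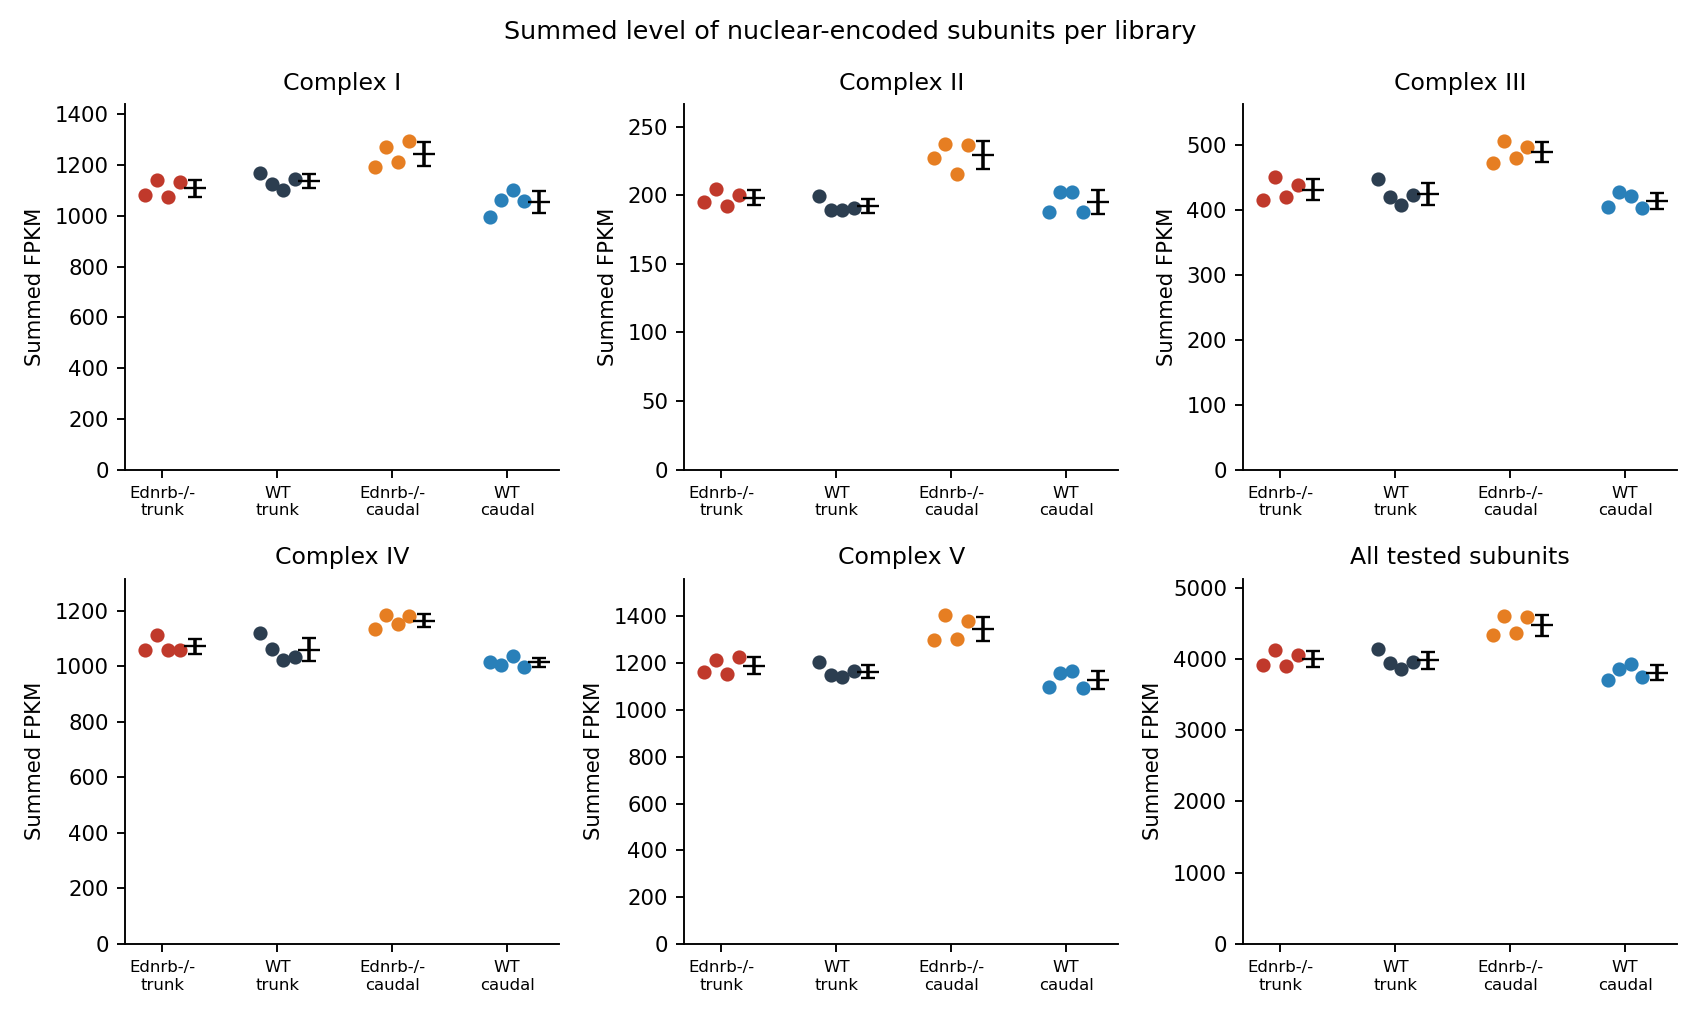
Summed FPKM of each complex in every library, with 1 panel per complex and 1 for all tested members, 1 point per library and the group mean ± SD beside it; vertical axes (FPKM) start at 0. In the caudal region all 4 Ednrb-/- points lie above all 4 WT points in each complex, whereas the Ednrb-/- and WT trunk points overlap.

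**Figure D2:**
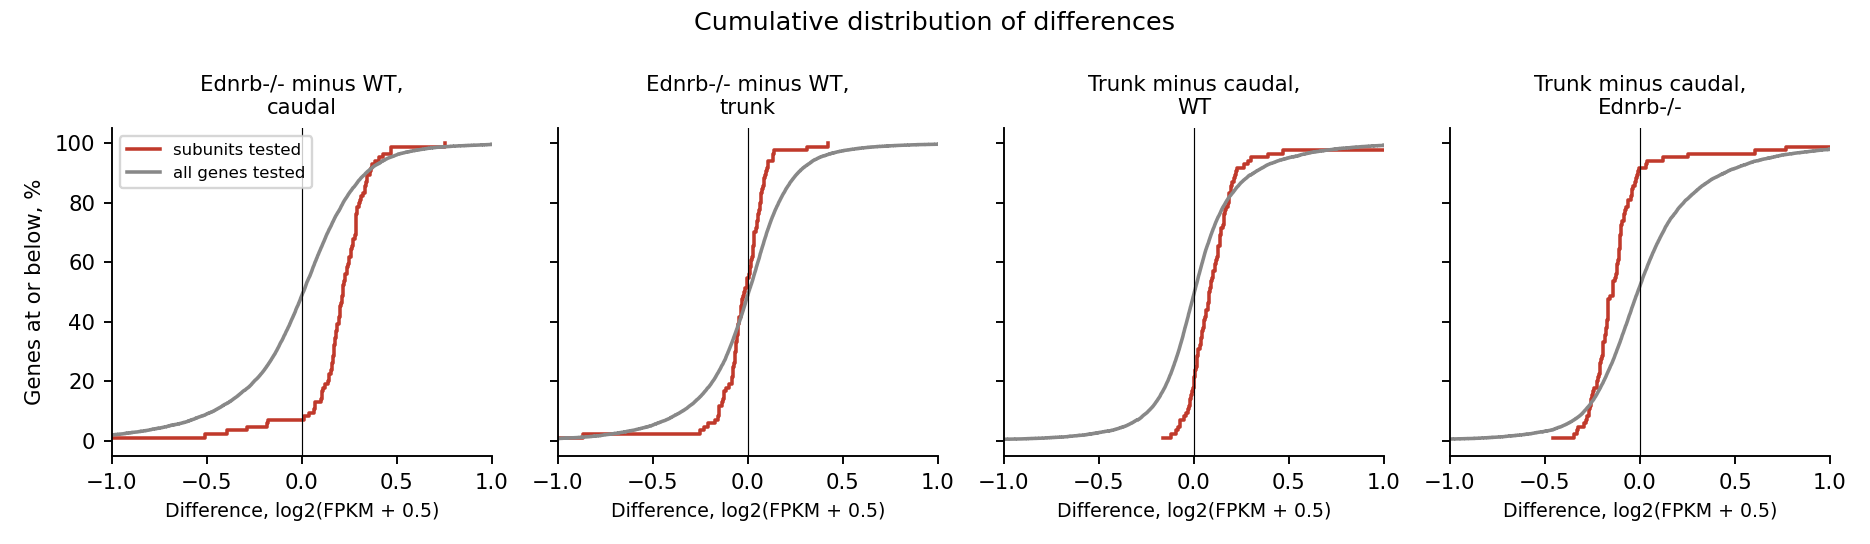
Cumulative share of genes (vertical axis, percent at or below) against log2 difference (horizontal axis, log2(FPKM + 0.5) scale, shown between -1 and 1) for the 84 members and for all 17205 genes tested, with 1 panel per comparison. The members' curve lies right of that of all genes in the caudal genotype comparison (median 0.22) and near it in the trunk (median -0.018).

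Complex I, the NADH dehydrogenase, had 30 of 36 tested members higher in Ednrb-/- caudal tissue and none lower, with a median difference of 0.21 that stayed above 0 under all 4 scalings. Its summed level was 1243 ± 46.9 FPKM in Ednrb-/- caudal and 1055 ± 44.4 FPKM in WT caudal libraries (SD, n = 4 each). The smallest adjusted p belonged to Ndufs6, an accessory subunit of the NADH-oxidising arm (mm39 chr13:73467957-73476661, minus strand). Ndufs6 was at 37.1, 42.3, 42.6 and 39.7 FPKM in Ednrb-/- caudal libraries, against 31.6, 29.6, 33.0 and 33.5 FPKM in WT caudal libraries. All 4 Ednrb-/- values were above all WT values, with a log2 difference of 0.34 ± 0.053 (SE; limma adjusted p = 0.000155). In the trunk Ndufs6 had 33.5, 34.8, 32.6 and 33.8 FPKM in Ednrb-/- libraries and 38.0, 33.8, 32.8 and 34.9 FPKM in WT libraries. These trunk values overlapped (log2 difference -0.049 ± 0.053, limma adjusted p = 0.544).

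Of the 7 catalytic core subunits of complex I, which between them carry the flavin and iron-sulfur clusters, 6 rose in the caudal region. They ran between 0.14 for Ndufs8 and 0.25 for Ndufs7 on the log2 scale. Ndufs3, a core subunit of the quinone-binding module, had a log2 difference of 0.068 (limma adjusted p = 0.281). Of the 29 accessory subunits, 24 rose. The largest called difference was that of Ndufa5, 0.37 ± 0.070 (SE; limma adjusted p = 0.000704). Ndufs3, Ndufs7 and Ndufa5 were named after their values were seen. Ndufc2, the most abundant complex I member, was at 86.1, 93.6, 80.6 and 90.0 FPKM in Ednrb-/- caudal libraries, against 68.3, 76.5, 83.4 and 76.6 FPKM in WT caudal libraries. The highest WT value lay inside the Ednrb-/- range, and the call (log2 difference 0.20 ± 0.063, limma adjusted p = 0.0177) was lost without Ednrb-/- caudal 2 (0.061) or WT caudal 1 (0.065), and with TPM, voom and quantile scaling.

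The 5 accessory members not called were Ndufa8, Ndufa11, Ndufa12, Ndufb2 and Ndufb5. Ndufa12 varied widely among libraries, at 30.8, 48.4, 46.4 and 55.9 FPKM in Ednrb-/- caudal and 31.2, 23.8, 40.4 and 34.4 FPKM in WT caudal libraries. The groups overlapped, and Ednrb-/- caudal 1 stood below the other 3 of its group. Its adjusted p in limma was 0.0554 with all libraries, 0.0078 without Ednrb-/- caudal 1 and 0.026 without WT caudal 3. A processed copy, Ndufa12-ps, had a mean of 57.6 FPKM, and reads could be split between the gene and its copy. Ndufb2 was the one complex I member below 0, at 1.85, 1.73, 1.98 and 1.67 FPKM in Ednrb-/- caudal, against 2.20, 2.37, 1.98 and 1.94 FPKM in WT caudal libraries (log2 difference -0.18 ± 0.082, limma adjusted p = 0.0866; called lower with TPM, 0.023, and voom, 0.031). It overlaps Braf, and its groups overlapped in value.

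Complex II, succinate dehydrogenase, is the entry point shared with the TCA cycle and is encoded wholly in the nucleus. Sdha, the flavoprotein (mm39 chr13:74470373-74498399), was at 75.2, 77.7, 72.3 and 78.1 FPKM in Ednrb-/- caudal libraries, against 56.7, 65.3, 65.6 and 61.7 FPKM in WT caudal libraries. The groups were apart, with a log2 difference of 0.28 ± 0.045 (SE; limma adjusted p = 0.000168). Sdhd, a membrane anchor, had 82.2, 86.1, 72.0 and 84.6 FPKM in Ednrb-/- caudal and 66.1, 69.99, 69.0 and 60.6 FPKM in WT caudal libraries. It too was separated, with a log2 difference of 0.29 ± 0.056 (limma adjusted p = 0.00085). Sdhb, the iron-sulfur subunit, had 37.1, 39.9, 37.9 and 41.0 FPKM in Ednrb-/- caudal and 33.0, 35.0, 35.5 and 34.6 FPKM in WT caudal libraries. The Sdhb difference was smaller, 0.17 ± 0.042 (limma adjusted p = 0.00368), and was not called with TPM, voom or quantile scaling.

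Sdhc, the other membrane anchor, did not pass the test in the caudal region. Its level was 32.7, 34.1, 33.4 and 33.0 FPKM in Ednrb-/- caudal and 31.9, 32.4, 32.3 and 30.8 FPKM in WT caudal libraries, with a log2 difference of 0.064 ± 0.030 (limma adjusted p = 0.107). The lowest Ednrb-/- value was just above the highest WT value. In the trunk, no complex II member was called with limma, or had an unadjusted p under 0.05; 1 was called lower with each of TPM, quantile normalization and voom. Sdha had 62.7, 64.3, 60.8 and 67.2 FPKM in Ednrb-/- trunk and 62.5, 60.4, 60.0 and 61.0 FPKM in WT trunk libraries, which overlapped. Sdhd had 65.5, 71.5, 65.8 and 66.5 FPKM in Ednrb-/- trunk and 65.7, 60.7, 61.8 and 62.5 FPKM in WT trunk libraries, with WT trunk 1 inside the Ednrb-/- range.

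In complex III, the cytochrome bc1 complex, 7 of 8 members rose in Ednrb-/- caudal tissue and none fell. All 5 small accessory subunits were called, with a median of 0.27, and the 3 core and catalytic subunits had a median of 0.11, which turned to -0.046 with quantile normalization. Uqcr10 was at 74.8, 79.2, 76.5 and 73.1 FPKM in Ednrb-/- caudal libraries, against 58.8, 62.2, 57.8 and 56.4 FPKM in WT caudal libraries. Uqcr11 was at 60.5, 62.8, 63.2 and 69.8 FPKM in Ednrb-/- caudal, against 46.0, 50.4, 50.1 and 46.2 FPKM in WT caudal libraries. Both small subunits were higher in every Ednrb-/- caudal library, by 0.37 ± 0.063 and 0.41 ± 0.072 on the log2 scale (SE; limma adjusted p = 0.000308 and 0.000406). Uqcrh, the hinge protein at the cytochrome c1 site, differed by 0.23 ± 0.040 (limma adjusted p = 0.000333), a call lost with quantile normalization (0.19).

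The Rieske iron-sulfur protein Uqcrfs1 was the 1 member that rose in both regions. It was at 73.7, 78.5, 73.0 and 74.8 FPKM in Ednrb-/- caudal and 72.7, 68.7, 69.9 and 66.8 FPKM in WT caudal libraries. In the trunk it was at 70.5, 76.0, 70.8 and 69.6 FPKM in Ednrb-/- and 66.7, 62.6, 65.5 and 65.6 FPKM in WT libraries. Neither pair of groups overlapped. The log2 difference was 0.11 ± 0.037 in the caudal region (limma adjusted p = 0.0268) and 0.14 ± 0.037 in the trunk (limma adjusted p = 0.0125), and the difference between regions did not pass the test (-0.030 ± 0.052, limma adjusted p = 0.781). The caudal call was lost without Ednrb-/- caudal 2 (0.088) or 4 (0.051), or without WT caudal 2 (0.059) or 4 (0.088), without the libraries that held both Xist and Ddx3y (0.067), with the compared groups alone (0.055), and with TPM (0.90) and voom (0.45), and the direction turned with quantile normalization. The trunk call was lost with voom (0.067). Uqcrc1, a core protein, had 29.6, 30.5, 28.4 and 31.8 FPKM in Ednrb-/- caudal and 28.9, 29.3, 28.8 and 27.7 FPKM in WT caudal libraries, overlapped, and was not called (limma adjusted p = 0.193).

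Complex IV, cytochrome c oxidase, is described by kind of subunit. Of its 11 general subunits, present in most tissues, 9 rose in Ednrb-/- caudal tissue with a median of 0.26, where 21.7% of all genes tested rose. Of its 6 tested tissue or condition forms none rose and 1 fell, with a median of -0.34. That 1 is 16.7%, no more than the 19.9% of all genes called lower. Cox4i2 stood above 0, at 0.39, and all the forms but Cox6b2 were among the lowest tested members. Neither median changed sign under the other 3 scalings, but with quantile normalization the general subunits had a median of 0.078, with 3 higher and 1 lower. Cox6c, a general subunit with no tissue form (mm39 chr15:35926032-35938392, minus strand), varied little within each group. It was at 30.9, 33.0, 31.7 and 32.2 FPKM in Ednrb-/- caudal libraries, against 26.1, 26.1, 25.8 and 26.4 FPKM in WT caudal libraries. The lowest Ednrb-/- library stood above the highest WT library, and the log2 difference was 0.28 ± 0.033 (SE; limma adjusted p = 1.56e-05). In the trunk Cox6c had 25.0, 25.8, 26.3 and 27.6 FPKM in Ednrb-/- and 27.1, 27.7, 28.5 and 27.2 FPKM in WT libraries, and the ranges overlapped (limma adjusted p = 0.102).

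Not every general subunit was called. Cox6a1 was at 141, 135, 130.4 and 146 FPKM in Ednrb-/- caudal and 139, 129, 144 and 126 FPKM in WT caudal libraries. Cox8a was at 149.9, 157, 147 and 161 FPKM in Ednrb-/- caudal and 152, 141, 142 and 136 FPKM in WT caudal libraries. Both pairs overlapped, with log2 differences of 0.035 ± 0.057 and 0.11 ± 0.060 (SE; limma adjusted p = 0.666 and 0.173), although these are among the most abundant members. With quantile normalization Cox6a1 was called lower (log2 difference -0.19, limma adjusted p = 0.0076). Cox6b1, of similar abundance, was at 144, 155, 151 and 156 FPKM in Ednrb-/- caudal and 115, 128, 128 and 125 FPKM in WT caudal libraries. Its values were apart, with a log2 difference of 0.29 ± 0.043 (limma adjusted p = 0.000101). That call was lost with quantile normalization (limma adjusted p = 0.29).

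Cox4i1, the general form of subunit 4, was at 99.6, 104, 104 and 107 FPKM in Ednrb-/- caudal and 90.2, 93.1, 98.1 and 94.9 FPKM in WT caudal libraries. The groups were apart by a narrow margin, with a log2 difference of 0.14 ± 0.038 (SE; limma adjusted p = 0.0073). That call was lost with TPM and voom, and the direction turned with quantile normalization. Ndufa4 and Cox7b did not overlap between the groups and differed by 0.26 ± 0.037 and 0.23 ± 0.040 on the log2 scale (limma adjusted p = 6.67e-05 and 0.000351; the Cox7b call was lost with quantile normalization, 0.21). Cox7a2 had 74.3, 75.3, 71.3 and 80.7 FPKM in Ednrb-/- caudal and 50.5, 67.3, 65.9 and 60.2 FPKM in WT caudal libraries. The groups were apart, WT caudal 1 stood below the rest of its group, and the log2 difference was 0.31 ± 0.078 (limma adjusted p = 0.00471; 0.053 with quantile normalization). Cox7a2l, a factor for supercomplex assembly, was not called, at a log2 difference of 0.011 ± 0.037 (limma adjusted p = 0.846). Cox5b-ps, annotated as protein-coding in the deposited table despite its name, rose by 0.47 ± 0.090 (limma adjusted p = 0.000782), and reads could be shared with Cox5b.

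The muscle form Cox6a2 (mm39 chr7:127804607-127805559, minus strand), which replaces Cox6a1 in heart and skeletal muscle, was the one member that fell in both regions. In the trunk it was at 0.941, 0.671, 0.433 and 0.292 FPKM in Ednrb-/- libraries, against 1.72, 2.78, 2.49 and 2.75 FPKM in WT libraries. Those groups were far apart, with a log2 difference of -1.46 ± 0.26 (SE; limma adjusted p = 0.000914). In the caudal region it was at 0.559, 0, 0.247 and 0.0844 FPKM in Ednrb-/- libraries, against 1.20, 1.13, 0.402 and 1.12 FPKM in WT libraries. Ednrb-/- caudal 1 lay above WT caudal 3, so the groups overlapped, with a log2 difference of -1.03 ± 0.26 (limma adjusted p = 0.00454). The difference between the regions did not pass the test (0.43 ± 0.36, limma adjusted p = 0.519).

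Cox8b, the muscle form of Cox8a (mm39 chr7:140478858-140480359, minus strand), was at 0.658, 0.713, 0.545 and 0.344 FPKM in Ednrb-/- trunk libraries, against 1.52, 1.33, 1.62 and 1.25 FPKM in WT trunk libraries. All Ednrb-/- trunk values were lower, with a log2 difference of -0.87 ± 0.27 (SE; limma adjusted p = 0.0268). The call was lost with a pseudocount of 0.1 (0.16), with no filter (0.059), with voom (0.061), with a sex term (0.057), and without Ednrb-/- trunk 3 (0.052) or 4 (0.080), or WT trunk 1 (0.054) or 3 (0.063). In the caudal region Cox8b was listed at 0 in 2 Ednrb-/- libraries and 1 WT library and was not called (limma adjusted p = 0.423). Cox7a1, the muscle form of Cox7a2, had 0.254, 0.529, 0.262 and 0.590 FPKM in Ednrb-/- caudal and 1.67, 0.818, 0.460 and 0.203 FPKM in WT caudal libraries. Its groups overlapped in both regions and it was not called (limma adjusted p = 0.278 caudal and 0.587 trunk).

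Many markers of muscle and heart were lower in Ednrb-/- tissue too, although of these muscle forms only Cox6a2 was called lower in both regions. Of 13 tested markers, 1 was higher and 10 lower in Ednrb-/- caudal tissue, and 1 was higher and 7 lower in Ednrb-/- trunk tissue. Their summed level was 84.3 to 111 FPKM in Ednrb-/- caudal, 188 to 202 FPKM in WT caudal, 236 to 249 FPKM in Ednrb-/- trunk and 317 to 401 FPKM in WT trunk libraries. Myog, a myogenic regulator, differed by -1.08 in the caudal region and -0.76 in the trunk on the log2 scale (limma adjusted p = 2.75e-06 and 7.82e-05). Mb, myoglobin, differed by -0.79 and -1.39 (limma adjusted p = 0.000245 and 1.2e-05). Ckm, muscle creatine kinase, reached at most 0.201 FPKM in any library. The part of muscle content in the Cox6a2 and Cox8b values was not tested.

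The remaining restricted forms gave no genotype call with limma on the deposited FPKM and all libraries. Cox4i2, known from lung and induced by low oxygen, was at 2.34, 1.54, 1.78 and 2.29 FPKM in Ednrb-/- caudal and 1.76, 1.28, 1.42 and 1.14 FPKM in WT caudal libraries, overlapping (limma adjusted p = 0.129). Cox6b2, a testis form detected throughout, was at 9.12, 7.89, 10.1 and 7.77 FPKM in Ednrb-/- caudal and 10.2, 10.6, 8.98 and 9.80 FPKM in WT caudal libraries, also overlapping (limma adjusted p = 0.123). It was called lower in the caudal region with TPM (0.029) and without Ednrb-/- caudal 3 (0.032), and in the trunk under 9 of 27 alternatives (0.027 to 0.048). Ndufa4l2, a paralog of Ndufa4 induced by low oxygen, was at 0.645, 0.465, 0.409 and 0.524 FPKM in Ednrb-/- caudal and 1.56, 0.699, 0.874 and 0.744 FPKM in WT caudal libraries. All Ednrb-/- caudal values of Ndufa4l2 were below the WT values, with a log2 difference of -0.51 ± 0.21 (SE; limma adjusted p = 0.0675; called with TPM, 0.045, and a pseudocount of 0.1, 0.044). Ndufa4l2 overlaps Shmt2, a gene at 26.2 FPKM, and its reads could be shared with that gene.

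**Figure D3:**
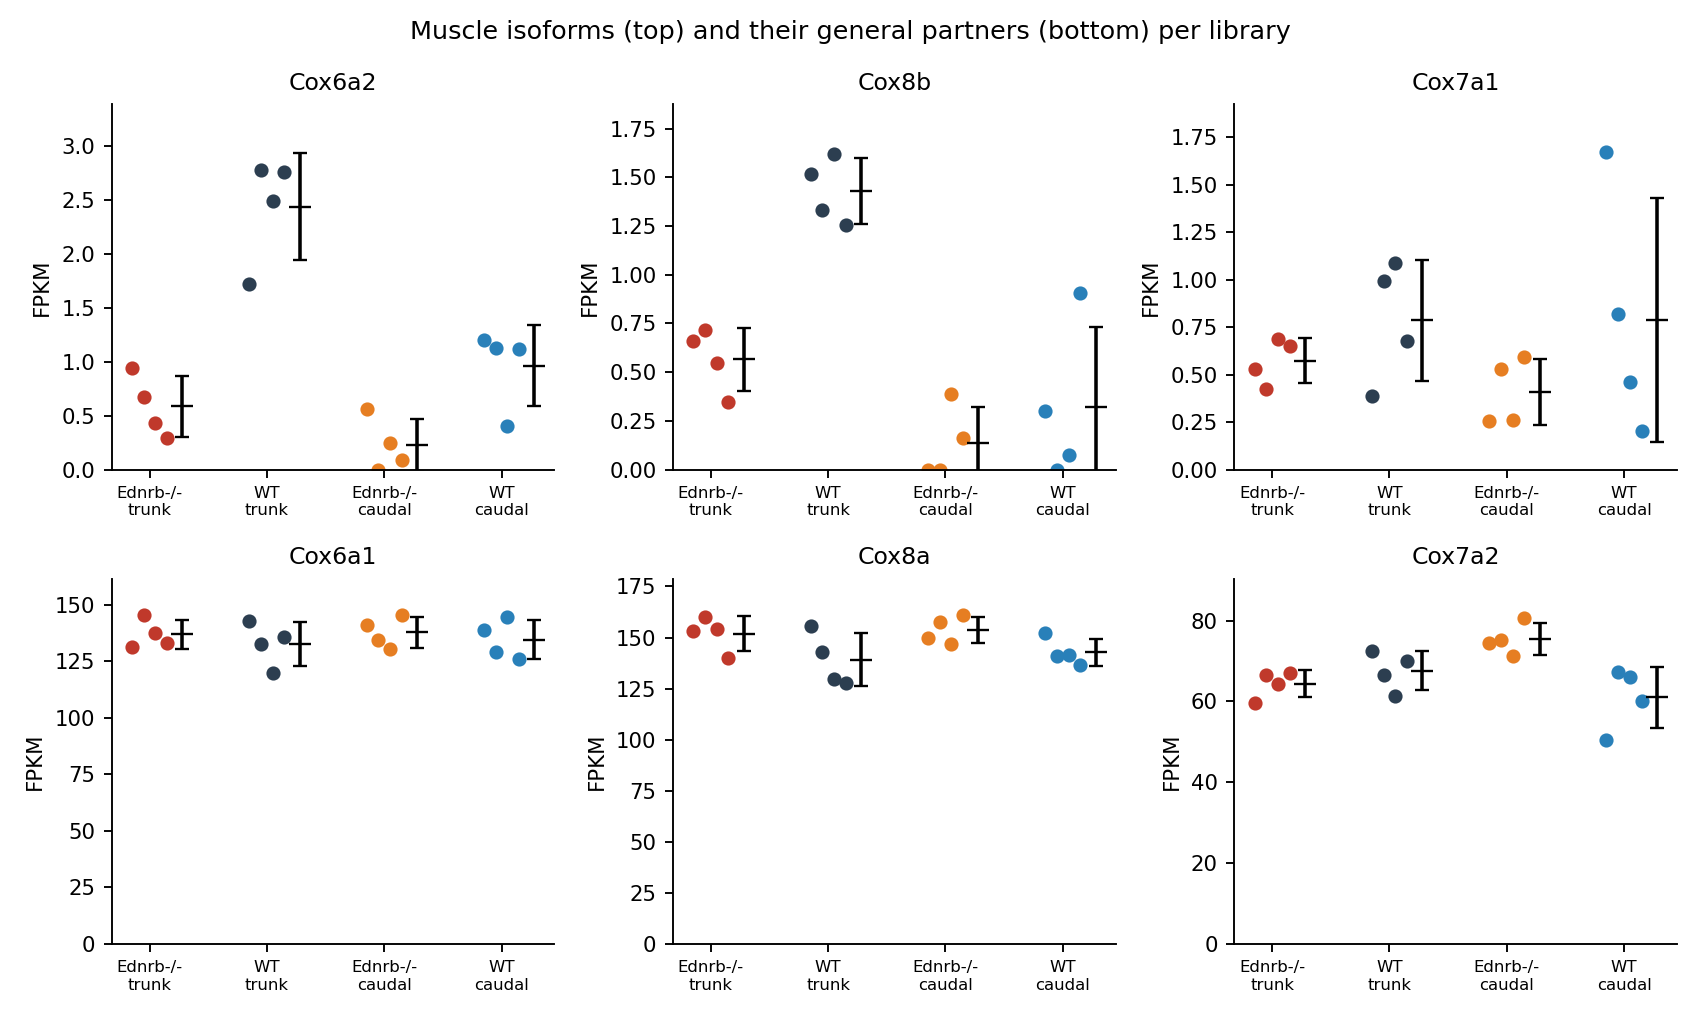
FPKM of muscle forms of complex IV (top) and their general partners (bottom) in every library (vertical axes from 0, separate scale per gene), by genotype and region, with the group mean ± SD beside the points. Cox6a2 is lower in Ednrb-/- than in WT in both regions, with 1 caudal overlap, and its partner Cox6a1 overlaps between all groups.

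Complex V, the ATP synthase, had 16 of 17 tested members higher in Ednrb-/- caudal tissue and none lower. Its summed level was 1347 ± 52.9 FPKM in Ednrb-/- caudal and 1130 ± 38.1 FPKM in WT caudal libraries (SD, n = 4 each). The largest rise of any member in this comparison was that of Atp5k, subunit e of the membrane part, which helps synthase dimers to form (mm39 chr5:108581110-108582314, minus strand). Atp5k was at 41.8, 43.1, 44.7 and 39.6 FPKM in Ednrb-/- caudal libraries, against 21.8, 24.6, 26.3 and 27.2 FPKM in WT caudal libraries. The lowest Ednrb-/- value was far above the highest WT value, with a log2 difference of 0.75 ± 0.080 (SE; limma adjusted p = 8.71e-06), a 1.68-fold difference. In the trunk Atp5k was at 28.2, 32.4, 27.4 and 35.3 FPKM in Ednrb-/- and 33.2, 32.5, 37.2 and 35.6 FPKM in WT libraries. The trunk groups overlapped, and the trunk difference was below 0, at -0.17 ± 0.080 (limma adjusted p = 0.133; 0.041 without Ednrb-/- trunk 4). The copy Atp5k-ps2 reached at most 1.75 FPKM.

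The rotor ring of the synthase is built from subunit c, for which 3 genes encode 1 mature protein. Atp5g3 was at 104, 115, 108 and 110.4 FPKM in Ednrb-/- caudal libraries, against 73.2, 83.5, 90.5 and 78.9 FPKM in WT caudal libraries. Atp5g2 was at 75.6, 83.3, 72.2 and 83.8 FPKM in Ednrb-/- caudal, against 59.3, 61.6, 66.9 and 60.1 FPKM in WT caudal libraries. Atp5g1, the least abundant, was at 16.4, 18.7, 16.0 and 18.6 FPKM in Ednrb-/- caudal, against 13.0, 15.6, 15.6 and 12.7 FPKM in WT caudal libraries. All 3 genes rose without overlap, by 0.43 ± 0.063, 0.34 ± 0.059 and 0.28 ± 0.073 on the log2 scale (SE; limma adjusted p = 9.26e-05, 0.000296 and 0.00542), and each call held with all 4 scalings. The inhibitor of the synthase, Atpif1, which lies outside the name rule, differed by 0.031 ± 0.054 (limma adjusted p = 0.687).

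All 5 subunits of the catalytic F1 head rose, with a median of 0.21. The calls depended on scaling: 2 of the 5 were called with TPM, 4 with voom and none with quantile normalization, where the median was 0.010. Atp5a1, the alpha subunit, was at 304, 317, 286 and 316 FPKM in Ednrb-/- caudal libraries, against 253, 275, 272 and 259 FPKM in WT caudal libraries. The groups were apart, with a log2 difference of 0.21 ± 0.040 (SE; limma adjusted p = 0.000852), and the direction turned with quantile normalization (-0.070). Atp5e, the epsilon subunit, was at 36.6, 34.7, 35.1 and 40.8 FPKM in Ednrb-/- caudal, against 27.2, 33.5, 29.5 and 31.9 FPKM in WT caudal libraries, with a log2 difference of 0.27 ± 0.078 (limma adjusted p = 0.0123). That call was lost with TPM (0.099) and quantile scaling (0.16). Of 4 stalk subunits 3 rose. The exception was Atp5o, which confers oligomycin sensitivity, at 7.97 ± 0.492 FPKM in Ednrb-/- caudal and 6.95 ± 1.20 FPKM in WT caudal libraries (SD, n = 4 each; limma adjusted p = 0.088).

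In the trunk few members were called. Of 84 members 1 rose, Uqcrfs1, and 4 fell, Cox6a2, Cox8b, Ndufs8 and Ndufb10. Among all genes tested, 12.2% were called higher and 13.0% lower. The summed level was 3915, 4124, 3902 and 4059 FPKM in Ednrb-/- trunk libraries, against 4141, 3950, 3864 and 3961 FPKM in WT trunk libraries. These ranges overlapped almost wholly. The median member difference was -0.018, against 0.0040 over all genes tested, and 38 of 84 members were above 0, against 50.9% of all genes. The count of members lower was 11 with TPM, 15 with quantile normalization and 8 with voom, with medians of -0.043, -0.051 and -0.056. Over all genes tested, 14.6%, 13.0% and 17.2% were called lower with these scalings, with medians of -0.018, 0.016 and -0.032. Leaving out Ednrb-/- trunk 3 or WT trunk 1 gave 2 members lower. The count higher was 2 without Ednrb-/- trunk 4, 3 without WT trunk 1 and 0 with voom.

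Ndufs8, a core iron-sulfur subunit of complex I, was at 29.5, 30.8, 30.9 and 29.0 FPKM in Ednrb-/- trunk libraries, against 31.8, 33.3, 32.3 and 34.2 FPKM in WT trunk libraries. All Ednrb-/- trunk values were lower, with a log2 difference of -0.13 ± 0.036 (SE; limma adjusted p = 0.0173; 0.055 without Ednrb-/- trunk 4 and 0.059 without WT trunk 4). In the caudal region the same gene was at 31.7, 32.4, 32.3 and 33.5 FPKM in Ednrb-/- and 28.4, 30.8, 28.4 and 30.1 FPKM in WT libraries, and was higher there (0.14 ± 0.036, limma adjusted p = 0.00595), a call lost with TPM, voom and quantile scaling. Ndufb10, an accessory subunit of the membrane arm, was at 39.6, 44.5, 40.0 and 45.8 FPKM in Ednrb-/- trunk, against 48.9, 48.0, 44.7 and 47.6 FPKM in WT trunk libraries. Ednrb-/- trunk 4 lay above WT trunk 3, so the groups overlapped (log2 difference -0.16 ± 0.049, limma adjusted p = 0.0301). That call was lost without any 1 of Ednrb-/- trunk 1 or 3 or WT trunk 1, 2 or 4 (0.065 to 0.093), without the libraries that held both Xist and Ddx3y (0.12), with no filter (0.058), with the compared groups alone (0.065) and with a sex term (0.085).

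The genotype difference itself was tested for a difference between the regions. For 29 of 84 members the caudal difference was greater than the trunk difference, and for none was it smaller, while 2.98% and 3.78% of all genes tested were called in those directions. An unadjusted p under 0.05 in limma was found for 59 of 84 members, and for 4043 of all 17205 genes tested. The median difference between regions was 0.24, against 0.0072 over all genes, and 77 of 84 members were above 0, against 51.5% of all genes. By complex the calls were 14 of 36 in complex I, 1 of 4 in complex II, 2 of 8 in complex III, 6 of 19 in complex IV and 6 of 17 in complex V. The count depended on single libraries: it was 17 without Ednrb-/- trunk 1, WT trunk 1 or Ednrb-/- caudal 4, 18 without Ednrb-/- trunk 3 and 19 without WT caudal 4. Without WT trunk 2, 1 member was called in the other direction. Under scaling it was 20 with TPM, 14 with quantile normalization and 29 with voom. It was 12 with a sex term and 17 with no filter.

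Called with all 4 scalings were 13 members, namely Ndufa1, Ndufa3, Ndufa5, Ndufa13, Ndufb7, Ndufb10, Ndufs6, Cox6b1, Cox6c, Atp5e, Atp5g3, Atp5k and Atp5md. Atp5k again led, with a caudal minus trunk difference of 0.92 ± 0.11 (SE; limma adjusted p = 0.000845). Cox6c followed at 0.36 ± 0.047 (limma adjusted p = 0.00123) and Cox6b1 at 0.35 ± 0.061 (limma adjusted p = 0.00619). In Cox6b1 the trunk values were 132, 142, 130.0 and 131 FPKM in Ednrb-/- and 147, 136, 136 and 139 FPKM in WT libraries, overlapping. Ndufs6 had 0.39 ± 0.075 and Ndufb10 had 0.37 ± 0.069 (limma adjusted p = 0.00967 and 0.00809). Uqcrc1, Uqcrfs1, Cox6a1, Cox7a2l and Cox8a stood near 0 in this contrast, between -0.030 and 0.0071, and were picked out after their values were seen.

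**Figure D4:**
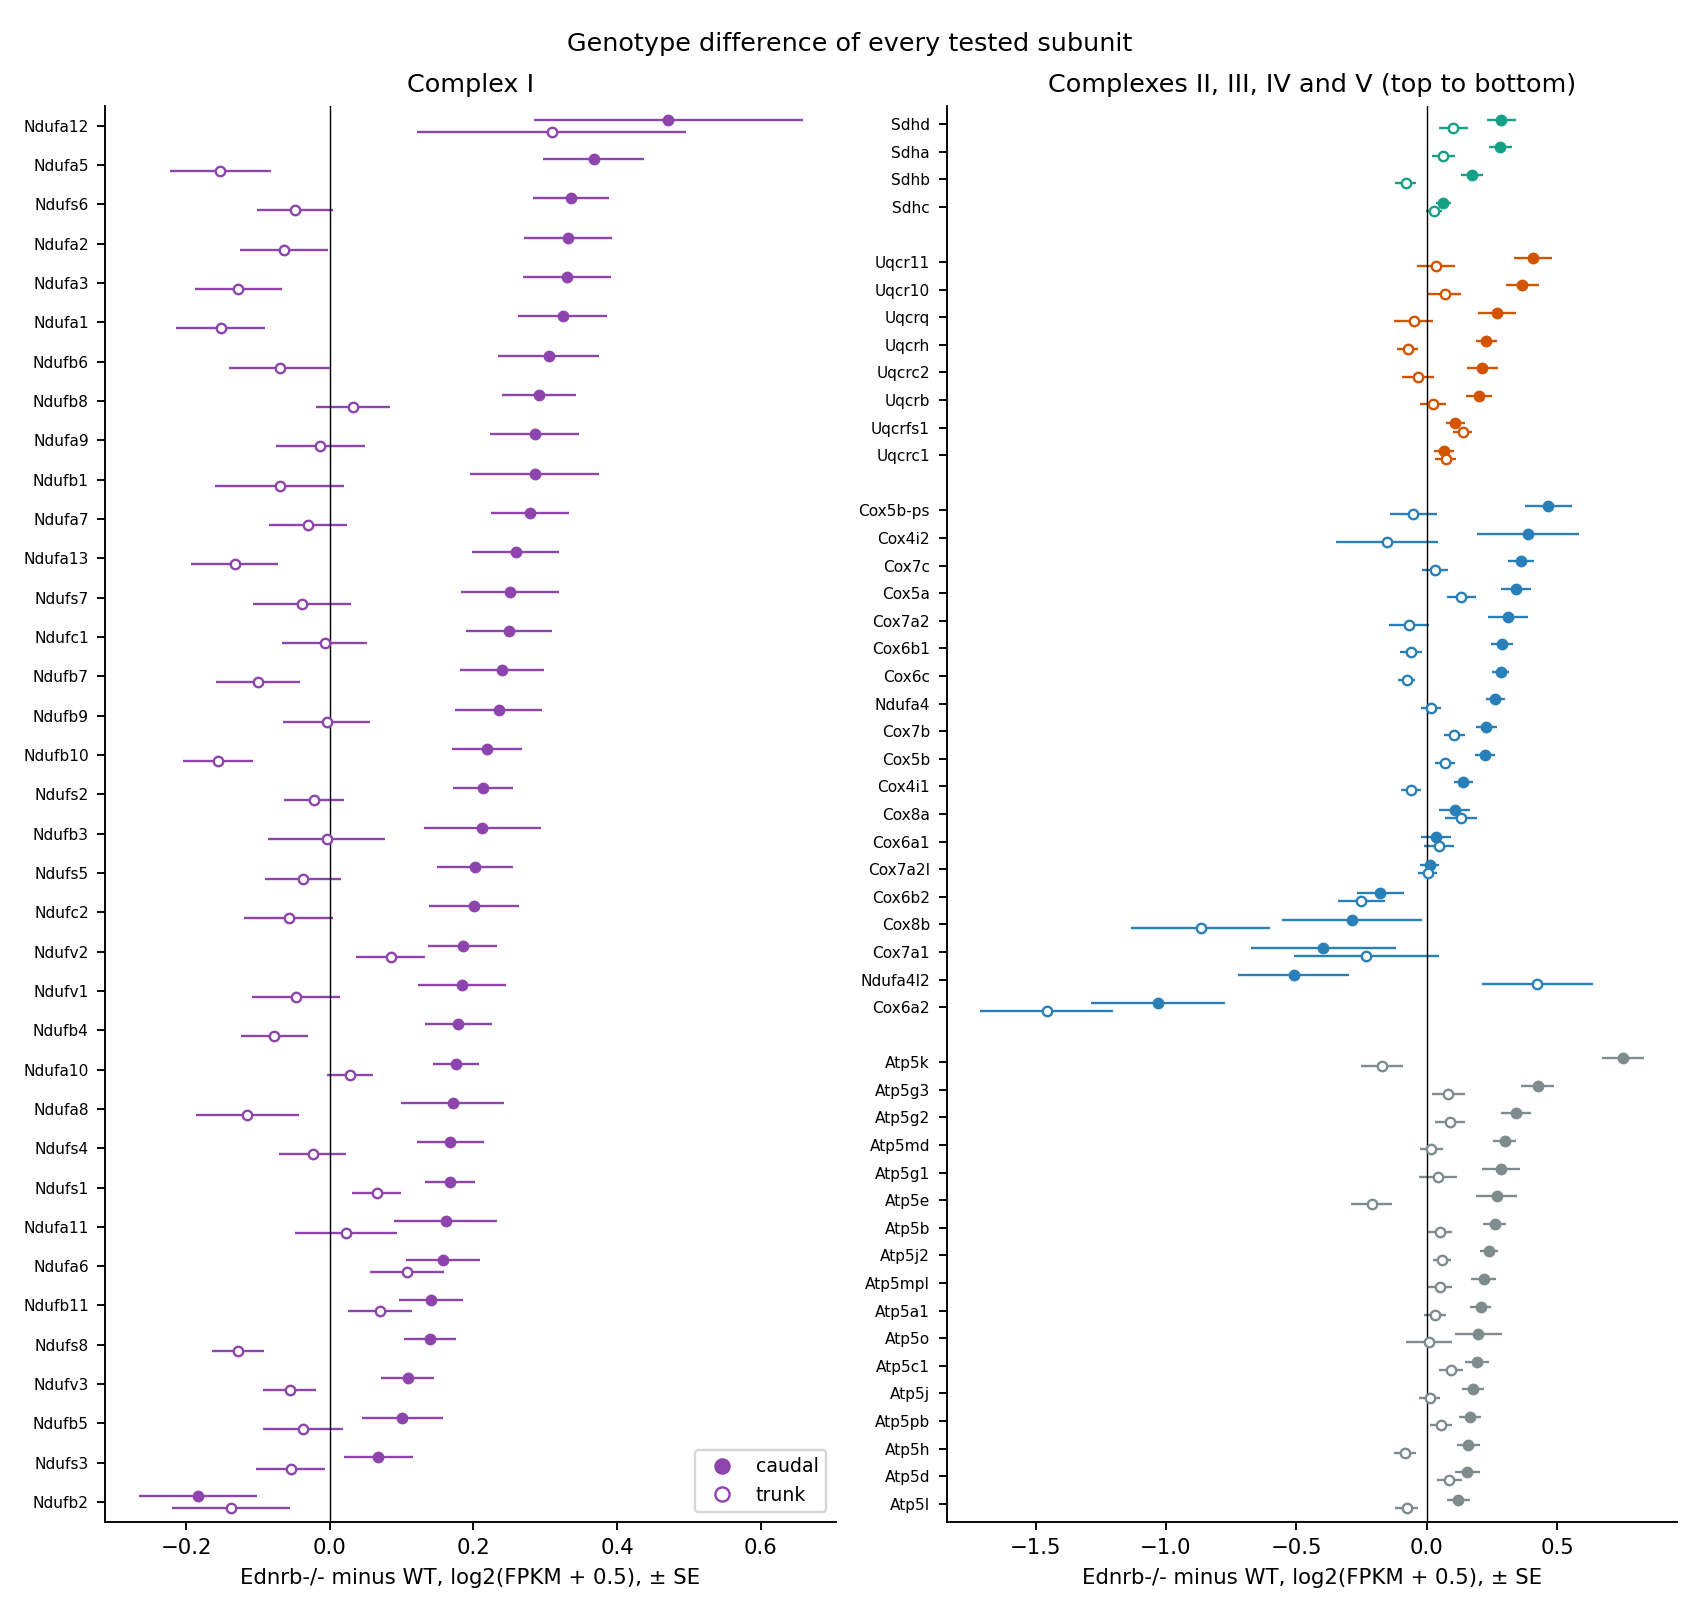
Log2 difference of each tested member (horizontal axis, log2(FPKM + 0.5) scale, Ednrb-/- minus WT, bars ± SE), with complex I in the left panel and complexes II to V in the right; filled points are the caudal region and open points the trunk. In the caudal region 78 of 84 points lie above 0, and in the trunk 38 of 84.

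Trunk and caudal tissue were also compared within each genotype. These comparisons share libraries with the genotype comparisons above, so their values are given side by side and are not separate support. In Ednrb-/- embryos 2 members were higher and 48 lower in the trunk than in the caudal region, while 17.3% and 18.9% of all genes were called in those directions. The median was -0.14, and it was -0.012 over all genes tested. In WT embryos 22 members were higher and 1 lower in the trunk, while 9.69% and 8.35% of all genes were called. The median there was 0.083. Both medians kept their sign under all 4 scalings, so members lay, on the median, lower in the trunk in Ednrb-/- embryos and higher in the trunk in WT embryos. With quantile normalization, however, the Ednrb-/- median was -0.045, close to the -0.025 of all genes tested. Under that scaling 13 of 84 members were called lower, near the 16.1% of all genes.

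Atp5k had log2 differences of -0.46 ± 0.080 in Ednrb-/- and 0.47 ± 0.080 in WT embryos, trunk minus caudal (SE; limma adjusted p = 0.000508 and 0.000961). Sdha differed by -0.25 ± 0.045 in Ednrb-/- embryos (limma adjusted p = 0.000628) and by -0.030 ± 0.045 in WT embryos (limma adjusted p = 0.705). Of the 6 restricted forms tested, 4 were above 0 in Ednrb-/- embryos and 2 of those were called, with a median of 0.43; Cox4i2 and Cox6b2 were below 0. Ndufa4l2 was at 1.54, 1.56, 1.19 and 2.38 FPKM in Ednrb-/- trunk, against the lower caudal values given above (1.08 ± 0.21, limma adjusted p = 0.0012). Cox8b was higher in WT trunk than in WT caudal libraries, with every trunk value above every caudal value (1.35 ± 0.27, limma adjusted p = 0.00278). Muscle and heart markers were higher in the trunk too, in 11 of 13 in Ednrb-/- and 10 of 13 in WT embryos, and their part in these values was not tested.

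These region counts moved with single libraries and with scaling. In Ednrb-/- embryos the count lower was 30 without Ednrb-/- trunk 1 and 29 without Ednrb-/- caudal 2, and it was 18 with TPM, 13 with quantile normalization and 29 with voom. Over all genes tested, 11.3%, 16.1% and 15.3% were called lower with these scalings. The count higher was 1 without any 1 of Ednrb-/- trunk 1, 2 or 3 or Ednrb-/- caudal 2 or 4. In WT embryos the count higher was 13 without WT trunk 1 or WT caudal 1 and 12 with a sex term. The single member lower in WT trunk, Uqcrc1 (-0.12 ± 0.039, limma adjusted p = 0.0451), was not called without any 1 of Ednrb-/- trunk 2 or 3, WT trunk 1, 2 or 3, Ednrb-/- caudal 1 or WT caudal 1, 2 or 3 (0.054 to 0.12).

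Genes that act beside the nuclear subunits were followed as lists. Of all genes tested, 21.7% were called higher and 19.9% lower in the caudal region, and 12.2% and 13.0% in the trunk. The mitochondrially encoded subunits, partners in the same complexes, were mostly not called in the caudal region. Of 13 tested, 1 rose (7.69%) and 3 fell (23.1%, near the share of all genes), with the same counts under each of the 4 scalings. Their share of reads was 1.60% ± 0.0565 in Ednrb-/- caudal and 1.77% ± 0.101 in WT caudal libraries, while the nuclear members' share was 0.817% ± 0.0149 in Ednrb-/- caudal and 0.732% ± 0.0159 in WT caudal libraries (SD, n = 4 each). mt-Nd3, of complex I, had a log2 difference of 0.37 (limma adjusted p = 0.00599). mt-Cytb, the catalytic subunit of complex III, fell, with a difference of -0.23 (limma adjusted p = 0.0023). mt-Nd4 and mt-Co1 differed by -0.20 and -0.18 (limma adjusted p = 0.0112 and 0.0259). In the trunk 3 rose (23.1%) and 1 fell (7.69%).

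Assembly factors, which build the complexes without staying in them, had 22 of 50 higher and none lower in Ednrb-/- caudal tissue, with a median of 0.15. That count was 8 with TPM and voom, each with 1 lower, and 21 with quantile normalization. Of all genes tested, 21.7% were called higher on the deposited FPKM, 12.9% with TPM, 15.3% with voom and 19.9% with quantile normalization. The 8 of 50 with TPM and voom are near the shares of all genes. Uqcc2, needed for cytochrome b, Fmc1, needed for the synthase head, and Ndufaf2, a complex I factor, differed by 0.42, 0.49 and 0.36 (limma adjusted p = 5.36e-05, 9.06e-05 and 0.00042). In the trunk 2 were higher and 2 lower, all of them complex IV factors. That is 4% each, where 12.2% and 13.0% of all genes tested were called. Subunits and carriers outside the name rule were higher in the caudal region too: cytochrome c1 (Cyc1) by 0.26, Ndufab1 by 0.28 and cytochrome c (Cycs) by 0.44 (limma adjusted p = 0.00297, 0.000449 and 1.45e-05).

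Of 15 regulators of mitochondrial gene expression, 6 were higher (40%) and 1 lower (6.67%) in Ednrb-/- caudal tissue. The shares of all genes tested were 21.7% and 19.9%. Tfam, which packages and transcribes mitochondrial DNA, and Pprc1, a coactivator, differed by 0.31 and 0.40 (limma adjusted p = 0.000296 and 0.00087). Nrf1 and Yy1 were named for their motifs: Nrf1 differed by 0.19 (limma adjusted p = 0.00927), and Yy1 by 0.10 (limma adjusted p = 0.12). The GABP genes Gabpa, Gabpb1 and Gabpb2, of the ETS motif, were also in the list, and their differences are not given here. Esrrg, a nuclear receptor known for oxidative genes in muscle, was the 1 that fell, with -0.80 (limma adjusted p = 5.19e-05). The list's median of 0.080 turned to -0.021 with TPM. At least 1 motif was in 37 of 59 windows of members called higher in the caudal region (62.7%). For the other tested members it was in 8 of only 14 windows (57.1%). By motif, the shares were 27.1% against 35.7% for NRF1, 23.7% against 21.4% for ETS and 27.1% against 7.14% for YY1. These shares were not tested.

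Other metabolic lists were higher in Ednrb-/- caudal tissue as well, and several were also higher in the trunk. Mitochondrial import proteins and chaperones rose in 15 of 15 in the caudal region and in 7 of 15 in the trunk. Hspe1 and Hspd1, the chaperonin pair of the matrix, differed by 0.66 and 0.64 in the caudal region (limma adjusted p = 1.02e-05 and 2.1e-05). Of 16 genes of the TCA cycle and pyruvate dehydrogenase, 14 rose in the caudal region and 4 in the trunk. Glycolysis genes had 15 of 21 higher and 4 lower in the caudal region, and 13 higher and 4 lower in the trunk, with no member called in the test of the difference between regions. Their caudal median was 0.62, with Ldha, lactate dehydrogenase A, at 0.90 and Eno1, enolase, at 0.75 (limma adjusted p = 3.56e-06 and 2.01e-06).

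Ribosomal proteins were higher as well in Ednrb-/- caudal tissue. In the caudal region 76 of 94 cytosolic ribosomal protein genes were higher and 2 lower, with a median of 0.33, and 59 of 77 mitochondrial ribosomal protein genes were higher and none lower, with a median of 0.25. In the trunk 14 cytosolic genes (14.9%) were higher and 1 lower, and 7 mitochondrial ones (9.09%) were higher. These shares are near the 12.2% of all genes tested that were called higher there. Both lists' caudal medians stayed above 0 with all 4 scalings. Cytosolic ribosomal proteins took 3.68% ± 0.0824 of reads in Ednrb-/- caudal and 3.07% ± 0.0895 in WT caudal libraries, and 3.27% ± 0.101 in Ednrb-/- trunk and 3.13% ± 0.121 in WT trunk libraries (SD, n = 4 each).

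**Figure D5:**
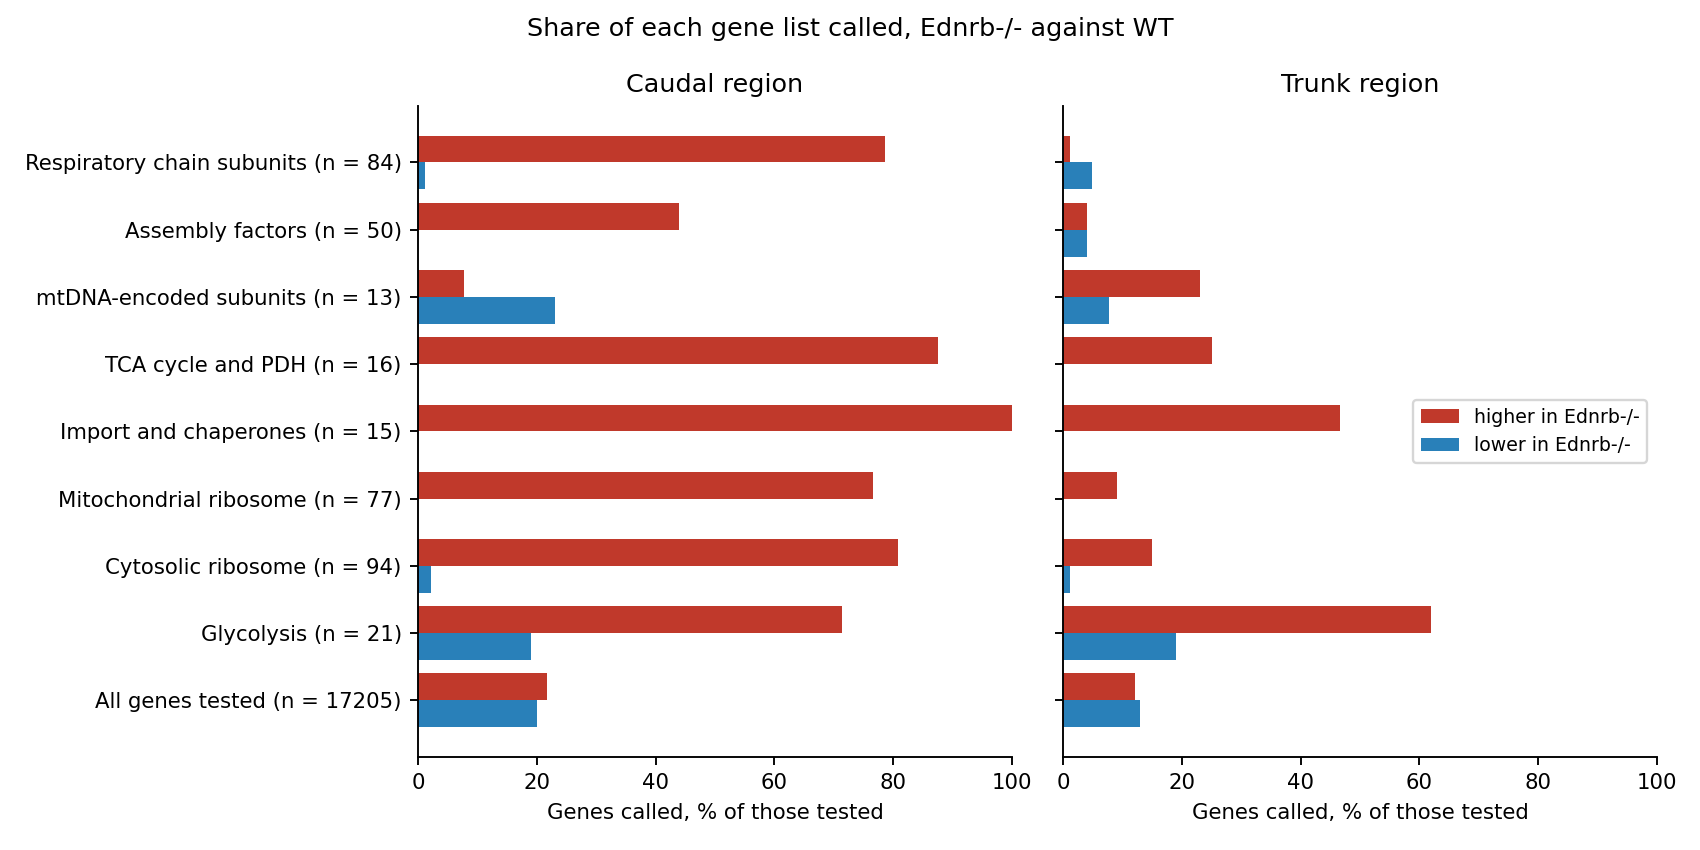
Share of each list's tested genes (horizontal axis, percent) called higher (red) or lower (blue) in Ednrb-/- than in WT, in the caudal and trunk regions. Import proteins reach 15 of 15 higher in the caudal region, whereas mitochondrially encoded subunits stand at 1 higher and 3 lower of 13. All genes tested stand at 21.7% higher and 19.9% lower there.

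Markers of other cell types changed with genotype beside the respiratory subunits. Of 8 tested neuron markers, 1 was higher and 7 lower in Ednrb-/- caudal tissue, with a summed level of 142 to 238 FPKM in Ednrb-/- caudal and 293 to 396 FPKM in WT caudal libraries. In the trunk 1 was higher and none lower, at 330 to 387 FPKM in Ednrb-/- and 359 to 458 FPKM in WT libraries. Of 12 erythroid markers, 1 was higher and 6 lower in the caudal region, with sums of 3764 to 6123 FPKM in Ednrb-/- and 5424 to 6575 FPKM in WT libraries. In the trunk 1 was higher and 7 lower, with sums of 3704 to 4210 FPKM in Ednrb-/- and 4835 to 6410 FPKM in WT libraries. Liver markers were near 0, with sums between 0.43 and 3.15 FPKM. The part of cell composition in the respiratory values was not tested.

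Reads of overlapping genes could not be separated with certainty, since neither strand use nor the handling of multiply mapping reads is stated. Of the members, 41 overlap another listed gene, and 22 overlap a protein-coding gene at 1 FPKM or more. Cox6c overlaps Vps13b at 2.77 FPKM and Ndufs6 overlaps Mrpl36 at 17.7 FPKM. Cox6a2 overlaps Itgad, which had 0.0043 FPKM. A listed copy with the ending -ps exists for 8 members. Across members, the caudal difference had a Spearman correlation of -0.19 with gene length and 0.19 with level, and across all genes tested -0.12 and 0.26; genes share their libraries and are not independent, so these are descriptions.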

How the data were processed

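TRIzol total RNA went into standard Illumina libraries, as the labels' protocols state. The submitters' processing notes name fastp, HISAT2 2.0.5, featureCounts 1.5.0-p3 and build mm39. The annotation release, the strand setting and how multiply mapping reads were handled: not given in the sources used here. The authors deposited FPKM for all libraries side by side, per the file headers, with mm39 gene coordinates. FPKM times gene length gave whole reads for 100% of values (tolerance 0.01), with 34883821 to 43444905 reads per library in listed genes. At that depth the spread between libraries limits precision for all but the lowest members.

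Genes at 0.5 FPKM or more in at least 4 of 16 libraries were kept, 17205 in all. limma 3.58.1 in R 4.3.3 was fitted to log2(FPKM + 0.5) with 4 group means and a trended prior. P-values were adjusted by Benjamini-Hochberg over all genes tested, and a call is an adjusted p under 0.05. Members below the filter had a two-sided exact permutation test of 4 against 4 libraries (70 assignments). Lists are described by counts and medians, with no list test. Figures were drawn with matplotlib 3.10.9 in Python 3.11.15. Alternatives were 3 other scalings (TPM, quantile, voom on recovered reads), pseudocounts of 0.1 and 1, other filters, the compared groups alone, a sex term, a replicate block, leaving out libraries with both Xist and Ddx3y at 5 FPKM or more, and leaving out each library in turn.

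The members and lists were chosen with earlier results of these data known. Named with values were, in each genotype comparison and complex, the called member with the smallest adjusted p in each direction; the 3 largest differences per genotype or region comparison among members with a group mean of 1 FPKM or more; the restricted complex IV forms and their partners; the subunit c genes and the inhibitor; complex II; and the highest, lowest or most changed member of a complex. From each list up to 3 genes were named by adjusted p, and others named were chosen after their values were seen. Promoter sequences are from RefSeq on GRCm38.p6, in which 69 of 87 member symbols had an entry, and their coordinates were not joined to the mm39 table.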

Additional observations from a re-analysis of the deposited data

Results flagged for a closer look

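In 8 of 180 groups of 4 libraries examined, 1 library stood apart from the other 3 by Dixon's criterion (gap to the nearest over range), which chance gives in about 1 of 20 groups. For Atp5l, WT trunk 1 was at 6.80 FPKM, with the other 3 at 6.45 to 6.505 FPKM. For Sdhb, WT trunk 1 was at 41.6 FPKM, with the others at 37.21 to 37.9 FPKM. The summed level of complex II was 199.8 FPKM in WT trunk 1, with the others at 189.3 to 191.1 FPKM. For Cox6b1, Ednrb-/- trunk 2 was at 142 FPKM, with the others at 130.0 to 132.1 FPKM. For Sdhd, Ednrb-/- trunk 2 was at 71.5 FPKM, with the others at 65.48 to 66.47 FPKM. The summed level of complex IV was 1112 FPKM in Ednrb-/- trunk 2, with the others at 1057 to 1061 FPKM. For Ndufa12, Ednrb-/- trunk 4 was at 44.1 FPKM, with the others at 31.74 to 33.82 FPKM. For Cox6a2, WT caudal 3 was at 0.402 FPKM, with the others at 1.118 to 1.197 FPKM. WT trunk 1 and Ednrb-/- trunk 2, which account for 6 of the 8, are both libraries with high Xist and low Y-linked RNA, and whether that bears on these values was not tested.

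The genotype difference was not the same in the 2 regions for 14 of 39 named and tested members, by the test of the difference itself (limma, caudal minus trunk on the log2 scale). Atp5k, subunit e of the synthase, had 0.92 (adjusted p = 0.000845). Cox6c had 0.36 (adjusted p = 0.00123) and Cox6b1 0.35 (adjusted p = 0.00619), both general complex IV subunits. Ndufa4 had 0.25 (adjusted p = 0.0153; 0.060 with a sex term and 0.13 with quantile normalization). In complex I, Ndufb10 had 0.37, Ndufs6 had 0.39 and Ndufs8 had 0.27 (adjusted p = 0.00809, 0.00967 and 0.00888). Uqcrh, the complex III hinge protein, had 0.30 (adjusted p = 0.00816), Sdhb of complex II had 0.25 (adjusted p = 0.0208) and Atp5e had 0.48 (adjusted p = 0.0207).

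With quantile normalization the calls of Uqcrh (0.051), Ndufs8 (0.051) and Sdhb (0.091) were lost, and with a sex term those of Sdhb (0.078) and Atp5e (0.060); the Sdhb call was also lost without the libraries that held both Xist and Ddx3y (0.051).

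The other 4 calls were lost when single libraries were left out and under other settings, Atp5g3 being called in 14, Uqcr11 in 11, Cox4i1 in 8 and Cox5b-ps in 18 of 26 alternatives. All 4 were lost with a sex term (0.077 to 0.11) and no filter (0.064 to 0.094), and Cox4i1 was lost with the other 3 scalings (0.059 to 0.26), Uqcr11 with TPM and quantile normalization (0.063 and 0.11) and Cox5b-ps with voom (0.050). Atp5g3 had 0.34 (limma adjusted p = 0.033), and was not called without any 1 of Ednrb-/- trunk 1 or 3, WT trunk 1, 2 or 4, Ednrb-/- caudal 2 or 4, or WT caudal 1 or 4 (0.053 to 0.070). Uqcr11 had 0.37 (limma adjusted p = 0.0418), and was not called without any 1 of those 9 libraries (0.054 to 0.089). Cox4i1 had 0.20 (limma adjusted p = 0.0366), and was not called without any 1 of Ednrb-/- trunk 1, 2 or 3, WT trunk 1, 2 or 3, Ednrb-/- caudal 2 or 4, or WT caudal 1, 2 or 4 (0.054 to 0.080). Cox5b-ps had 0.52 (limma adjusted p = 0.0276), and was not called without any 1 of Ednrb-/- trunk 1 or 3, WT trunk 1, or Ednrb-/- caudal 2 or 4 (0.054 to 0.059).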

How the results depend on the processing

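In the caudal genotype comparison members stayed higher on the median under each alternative run, and the count moved most with scaling. With TPM 37 were higher and 4 lower in the caudal region, 11 lower in the trunk, and trunk against caudal gave 2 lower in WT and 18 lower in Ednrb-/- embryos. With quantile normalization the caudal counts were 31 and 3, with 15 lower in the trunk, 13 lower in the trunk against caudal comparison of Ednrb-/- embryos, and 14 with a greater caudal than trunk difference. With voom on recovered reads 2 were lower in the caudal region, none higher and 8 lower in the trunk, and 29 lower in trunk against caudal of Ednrb-/- embryos; over all genes voom called 2630 higher and 4430 lower in the caudal region. Without a filter the trunk count lower was 2, the region counts were 0 lower in WT and 1 higher in Ednrb-/- embryos, and 17 differed between regions. A pseudocount of 0.1 gave 2 lower in the caudal region. Fitting only the groups compared gave 2 higher in the trunk and 0 lower in WT trunk against caudal, and allows no test of the difference between regions. A sex term gave 2 lower in the trunk, 12 higher in WT and 1 higher in Ednrb-/- trunk against caudal, and 12 differing between regions. Without the libraries that held both Xist and Ddx3y, 0 were lower in WT and 27 lower in Ednrb-/- trunk against caudal.

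Leaving out each of the 16 libraries in turn gave 56 to 67 higher and 1 to 2 lower in the caudal region, 1 to 3 higher and 2 to 6 lower in the trunk, 13 to 22 higher and 0 to 1 lower in WT trunk against caudal, 1 to 3 higher and 29 to 50 lower in Ednrb-/- trunk against caudal, and 17 to 38 with a greater and 0 to 1 with a smaller caudal difference. Libraries left out in a group of 4 leave 3 there. Caudal members lower were 2 without Ednrb-/- caudal 3.

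Among named members called in the caudal region or called under the alternative, 4 directions turned, with quantile normalization: Atp5a1 at -0.070, Cox4i1 at -0.028, Cox6a1 at -0.19 and Uqcrfs1 at -0.046. In Ednrb-/- trunk against caudal, Atp5a1 turned to 0.038 and Cox6a1 to 0.14 by the same rule. The causes were not tested. Of 1052 caudal values of named members under alternatives, 997 kept their side of the threshold, 42 lost a call and 9 gained one; in the trunk it was 1004, 20 and 28. Of those that kept their side, uncalled values changed sign in 10 cases in the caudal region (Cox6a1, Cox8a, Cox8b, Sdhc and Uqcrc1), 18 in the trunk, 17 in Ednrb-/- and 32 in WT trunk against caudal, and 32 in the difference between regions.

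Groups share replicate numbers, and the deviations of same-numbered libraries had correlations of -0.084 to 0.11. Such values cannot settle whether same-numbered trunk and caudal libraries came from the same embryos, so the main model left pairing out. With a replicate block, 67 members were higher and 1 lower in the caudal region, 1 higher and 5 lower in the trunk, 23 and 1 in WT trunk against caudal, 2 and 48 in Ednrb-/- trunk against caudal, and 31 had a greater caudal difference. Depth limits the lowest members: Cox8b, Cox7a1 and Cox6a2 rest on few reads, and Cox7b2 and Ndufb11b could not be tested in the model.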
